A study of Mus musculus with 28 samples.

Results

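The 4 peak lists of wild-type (WT) cells described here came from chromatin immunoprecipitation followed by sequencing (ChIP-seq): 2 replicates for histone H3 trimethylated at lysine 4 (H3K4me3) and 2 for histone H3 trimethylated at lysine 27 (H3K27me3), 4 of the 28 samples of the series. The lists were taken whole, and held 125176 peaks in all, 28813 and 34888 for H3K4me3 and 28349 and 33126 for H3K27me3 (replicates 1 and 2). The cells were naive J1 mouse embryonic stem cells (ESCs) of strain 129S4/SvJae, wild type, grown on gelatin with LIF and 2i, the pair of MEK and GSK3 inhibitors that holds ESCs in the ground state. The labels name no hairpin vector for the ChIP-seq cells, which are listed at day 5, as are the RNA-seq libraries below. Peaks were laid over the starts of 37583 genes and set beside gene expression in 16 RNA-seq libraries, all collected 5 days after transduction: WT and DNMT TKO cells (Dnmt1, Dnmt3a and Dnmt3b knocked out) with 3 libraries a group, and TET TKO cells (Tet1, Tet2 and Tet3 knocked out) with 2, each with an empty vector (shEmpty) or a hairpin against Kap1 (shKAP1). All were J1 129S4/SvJae cells by their labels, but the study obtained its DNMT TKO and TET TKO lines from separate laboratories, so that genotype and the history of a line cannot be told apart.

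H3K4me3 is laid down by the SET1 and MLL methyltransferases around the starts of genes, mostly at promoters rich in CpG dinucleotides, and is a mark of promoters that are active or open to activation. H3K27me3 is laid down by EZH1 and EZH2 in Polycomb repressive complex PRC2, can spread over wide domains, and is a mark of silenced genes. In ESCs both are found together at many promoters of developmental regulators, which are called bivalent. ESCs grown in 2i are known to carry less H3K27me3 at such promoters than ESCs grown in serum.

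A gene start was said to carry a mark when both replicates of that mark had a peak within 2 kb of it. A mark seen in 1 replicate only did not count, so that a start with H3K27me3 only can have H3K4me3 in 1 replicate. The gene start was the outermost one of the count tables, by strand, in the mouse genome build mm9. Of 37583 gene starts, 12626 (33.6%) carried H3K4me3 only, 3947 (10.5%) both marks, 1649 (4.39%) H3K27me3 only and 19361 (51.5%) neither. Promoter sequence was not used to form these 4 classes. A promoter with both marks and one with neither are printed here from the mm9 genome, 250 bases before to 50 bases after the start, to show how the classes differed in CpG content. The genes are familiar examples, picked by hand with their class known. Every CpG is in capitals and all other bases are in lower case. Olig2, a regulator of neural precursors, carried both marks (chr16:91225545-91225844, forward strand), and Alb, the liver albumin gene, carried neither (chr5:90889665-90889964, forward strand).
Olig2: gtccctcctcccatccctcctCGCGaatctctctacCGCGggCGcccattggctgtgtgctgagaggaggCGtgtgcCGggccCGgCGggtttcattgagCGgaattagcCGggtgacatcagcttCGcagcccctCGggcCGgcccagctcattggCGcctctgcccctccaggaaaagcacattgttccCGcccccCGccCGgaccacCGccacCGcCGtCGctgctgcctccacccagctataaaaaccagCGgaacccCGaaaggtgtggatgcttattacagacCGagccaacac
Alb: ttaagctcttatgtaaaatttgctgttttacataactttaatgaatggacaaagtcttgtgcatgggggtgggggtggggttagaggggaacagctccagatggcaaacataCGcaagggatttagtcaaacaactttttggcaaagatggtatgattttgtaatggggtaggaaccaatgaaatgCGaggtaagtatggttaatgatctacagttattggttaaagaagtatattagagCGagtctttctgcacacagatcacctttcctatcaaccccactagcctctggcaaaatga

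The window of Olig2 held 25 CpGs and that of Alb 3, and the ratio of observed to expected CpG was 0.82 and 0.26. The classes were compared over the promoter windows of RefSeq, which matched 16258 of the genes by symbol: 7827 with H3K4me3 only, 2325 with both marks, 668 with H3K27me3 only and 5438 with neither. The median CpG ratio was 0.79 with H3K4me3 only and 0.70 with both marks, against 0.24 with H3K27me3 only, 0.19 with neither and 0.58 over all matched genes. A ratio of at least 0.6 was found in 76.4%, 64.3%, 10.2% and 6.23% of these promoters, and in 48.5% of all matched ones. Promoters with H3K27me3 only were thus near the unmarked promoters in CpG content and not near those that carried H3K27me3 with H3K4me3. A RefSeq window was the first listed for a symbol, and need not hold the start whose marks were read. In the mm9 windows of those starts the median ratio was 0.75, 0.69, 0.23 and 0.19 in the same order, and 0.35 over all 37583. There 68.2%, 61.4%, 6.61% and 4.59% had a ratio of at least 0.6, and 32.0% of all. Read the other way, of 12038 gene starts whose own mm9 window had a ratio of at least 0.6, 71.6% carried H3K4me3 only, 20.1% both marks, 0.905% H3K27me3 only and 7.38% neither.

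The letters TATAAA, searched on both strands, were in 6.03% of the RefSeq windows with H3K4me3 only, 8.0% with both marks, 14.7% with H3K27me3 only, 24.4% with neither and 12.8% of all. The letters GGGCGG, likewise on both strands, were in 66.4%, 67.2%, 24.6% and 12.4%, and in 46.7% of all. GGGCGG holds a CpG and TATAAA only A and T, so neither share is independent of base composition. The median GC content was 61.3%, 64.0%, 52.7% and 46.3% in the same order. A match of letters is a description and not a site. The peaks themselves differed in the same direction: the median CpG ratio inside peaks was 0.52 and 0.46 for H3K4me3 and 0.22 and 0.21 for H3K27me3.

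The marks differed in width, place and repeatability. H3K4me3 peaks were narrow, with a median width of 1314 and 1417 bases in replicates 1 and 2, and covered 46.8 and 63.6 Mb. H3K27me3 peaks had a median width of 3000 and 2600 bases and covered 98.9 and 105 Mb. The widest H3K4me3 peaks spanned 16921 and 26284 bases, the widest H3K27me3 peaks 95400 and 110200. Within 2 kb of a gene start lay 50.8% and 43.3% of the H3K4me3 peaks (95% exact binomial intervals 50.2 to 51.4% and 42.8 to 43.8%, for counting error only) and 22.6% and 21.2% of the H3K27me3 peaks (22.1 to 23.1% and 20.7 to 21.6%). The median distance from a peak to the nearest gene start was 1.68 and 4.10 kb for H3K4me3 and 13.8 and 15.3 kb for H3K27me3. In width, in the share at gene starts and in distance the replicates of each mark lay closer together than the marks. With 2 libraries against 2, an exact permutation test cannot give a two-sided p below 0.333, and no p is given for these differences. H3K4me3 peaks were called with MACS. The methods name SICER for H3K9me3 and do not name H3K27me3, whose peak widths lie on a grid of 200 bases, the window stated for SICER, so that in width, coverage and overlap the mark and the calling cannot be told apart.

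Of the H3K4me3 peaks, 96.2% in replicate 1 and 74.4% in replicate 2 were overlapped by a peak of the other replicate, against 59.4% and 51.1% of the H3K27me3 peaks. Peaks at gene starts were found again more often than the rest: 99.1% and 91.9% against 93.4% and 61.0% for H3K4me3, and 78.8% and 71.1% against 53.8% and 45.7% for H3K27me3. Repeatability also moved with the score of a peak. In the lowest quintile of score, 83.1% and 20.2% of the H3K4me3 peaks were found again, and in the highest 100% in both replicates. For H3K27me3 the lowest quintile gave 42.3% and 31.9%, and the highest 90.7% and 89.9%. The share of peaks at gene starts rose from 19.3% and 13.7% to 91.2% and 90.0% across the quintiles of H3K4me3 score, and from 14.5% and 12.6% to 42.0% and 43.5% across those of H3K27me3 score. In its highest quintile, too, most H3K27me3 peaks lay away from gene starts. Scores of the marks are on separate scales, and many H3K4me3 peaks were tied at a score of 3100 (1301 and 4418 peaks), so that ranks were compared within a list only.

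**Figure D1:**
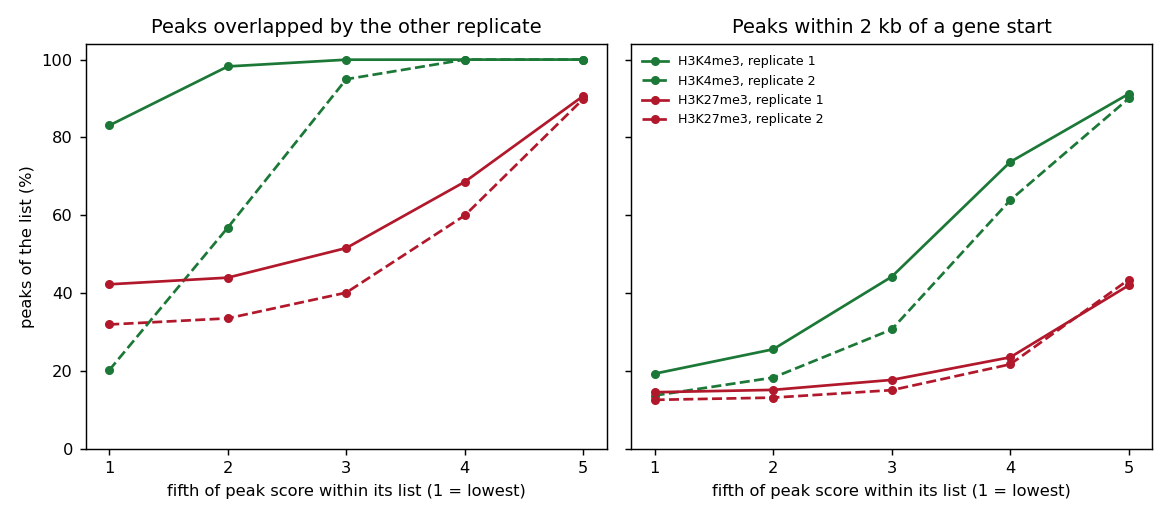
Share of peaks (%) overlapped by the other replicate (left) and share within 2 kb of a gene start (right), by quintile of peak score within a list (x axis, 1 = lowest), for H3K4me3 (green) and H3K27me3 (red), replicate 1 solid and replicate 2 dashed. H3K4me3 peaks reach 100% overlap in the highest quintile of both replicates, and H3K27me3 peaks reach 90.7% and 89.9%; in the same quintile 42.0% and 43.5% of the H3K27me3 peaks lie at gene starts.

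A peak of the other mark with the same replicate number overlapped 19.5% and 19.6% of the H3K4me3 peaks and 17.7% and 18.5% of the H3K27me3 peaks. This overlap was concentrated at gene starts for H3K27me3: 55.3% and 59.4% of its peaks there touched H3K4me3, against 6.73% and 7.56% of its peaks elsewhere. Libraries of both marks with the same number were called against the same input, according to the track lines of the lists, and the part of a shared input in this overlap was not tested.

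H3K4me3 was found at 16573 gene starts in both replicates (44.1% of all), which was 99.4% of the starts with a peak in replicate 1 and 94.8% of those in replicate 2. H3K27me3 was found at 5596 in both (14.9%), 79.4% and 73.3% of the starts marked in each replicate. Of the H3K27me3 starts 70.5% also carried H3K4me3, while 23.8% of the H3K4me3 starts also carried H3K27me3. The class of a gene start was less repeatable where H3K27me3 stood alone: taken from 1 replicate at a time, 92.4% and 91.0% of the H3K4me3-only starts, 88.3% and 77.4% of the starts with both marks and 90.5% and 94.4% of the unmarked ones had the same class in the other replicate, but 55.1% and 56.0% of the H3K27me3-only ones. The most common moves were between H3K27me3 only and neither (918 starts in one direction and 1076 in the other) and from H3K4me3 only in replicate 1 to both marks in replicate 2 (868 starts). At the edge of the window, 604 of 16573 starts for H3K4me3 and 673 of 5596 for H3K27me3 lay between 1 and 2 kb from a peak, and just outside it 520 and 538 lay between 2 and 3 kb.

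Protein-coding genes made up 22324 of all 37583 gene starts. They were 10518 of the 12626 starts with H3K4me3 only (83.3%) and 3255 of the 3947 with both marks (82.5%). They were 960 of the 1649 with H3K27me3 only (58.2%), near the share over all starts, and 7591 of the 19361 unmarked ones (39.2%). Of 1271 long intergenic RNA genes 53.6% carried H3K4me3 only and 19.9% both marks, against 47.1% and 14.6% of 22324 protein-coding genes. Of 5188 pseudogenes 88.8% carried neither mark, 5.88% H3K4me3 only, 1.75% both and 3.60% H3K27me3 only.

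At starts with both marks most H3K4me3 peaks lay within a wider H3K27me3 peak. Of the H3K4me3 peaks at these starts, 58.9% and 60.2% lay wholly inside H3K27me3 peaks and 92.2% and 94.2% touched one. These shares follow in part from the rule, which put a peak of each mark within 2 kb of the same start, and from the greater width of H3K27me3 peaks. In the other direction, 1.68% and 2.68% of the H3K27me3 peaks lay inside H3K4me3. The H3K4me3 peak was narrower there than at starts without H3K27me3, with a median of 1540 and 1804 bases against 2146 and 2581. The H3K27me3 peak was wider with H3K4me3 than without, with a median of 4200 and 4600 bases against 3800 and 3600, and spanned the whole window of 2 kb on each side at 25.0% and 30.4% of starts against 15.5% and 15.6%.

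H3K4me3 covered more downstream than upstream of the outermost start. With H3K4me3 only, 90.7% and 93.3% of starts were under a peak at the start itself, 35.3% and 44.4% at 1 kb upstream and 70.8% and 79.4% at 1 kb downstream. A start in use further inside the gene places its peak downstream of the outermost one, and the part of such starts was not tested. With both marks the H3K4me3 values were 85.2% and 88.6%, 17.7% and 23.6%, and 50.3% and 60.4% at the same places. H3K27me3 at those starts covered 76.0% and 75.6% at the start and was highest 600 bases downstream, at 82.8% and 84.6%. It still covered 19.6% to 21.7% of them at 10 kb on either side. H3K27me3-only starts had the lower but broader profile, with 66.0% and 65.5% at the start and 26.1% to 29.4% at 10 kb.

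**Figure D2:**
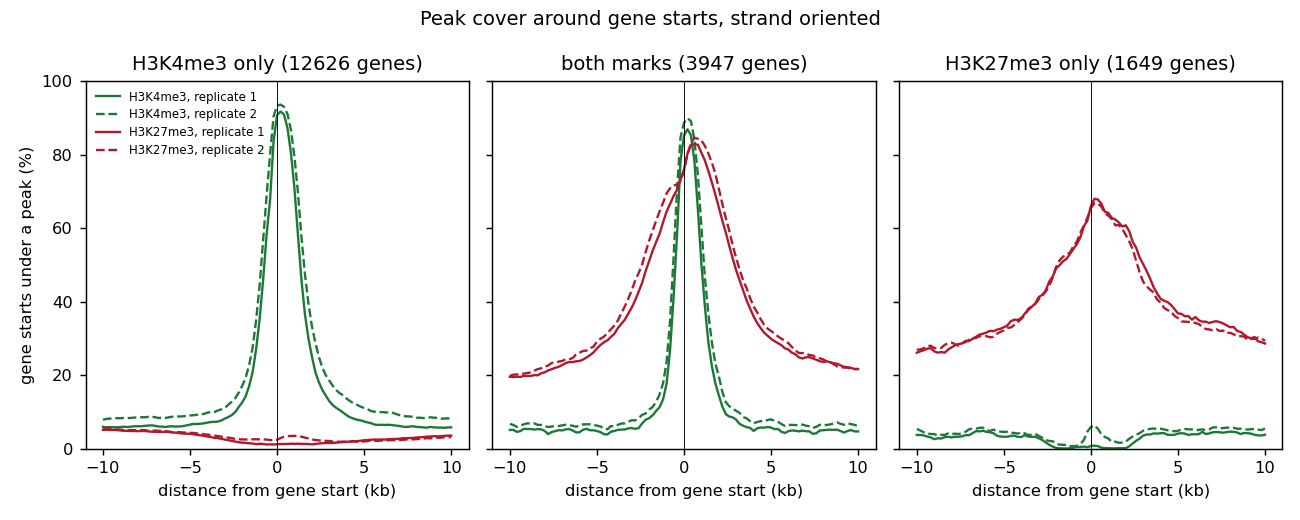
Share of gene starts (%) lying under a peak by distance from the start (kb, negative is upstream, oriented by strand), in the 12626 genes with H3K4me3 only, the 3947 with both marks and the 1649 with H3K27me3 only (left to right), for each mark and replicate. With both marks, H3K4me3 is a narrow peak of 85.2% and 88.6% at the start inside a H3K27me3 profile that is highest (82.8% and 84.6%) 600 bases downstream. The classes were formed from peaks within 2 kb, so heights inside that range follow in part from the rule.

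Expression separated the classes. Levels are given as reads scaled to gene length in kb and to sequencing depth (RPKM, with TMM library sizes) in the 3 WT shEmpty libraries, which held 18613633 to 28707470 reads on genes. The share of genes at 1 RPKM or more was 74.2%, 74.6% and 74.9% with H3K4me3 only in libraries 1 to 3 (74.6% ± 0.37, SD, n = 3). It was 25.3%, 27.3% and 27.7% with both marks (26.8% ± 1.33), 7.10% ± 0.32 with H3K27me3 only, 8.86% ± 0.036 with neither and 32.7% ± 0.26 over all genes. In all 3 libraries this share was far higher with H3K4me3 only than with both marks, and higher with both marks than in the other classes, with no overlap among libraries. Single genes did overlap. The lower quartile was 0.865, 0.954 and 0.985 RPKM with H3K4me3 only, and the upper quartile was 1.02, 1.24 and 1.31 RPKM with both marks. The median level was 7.36 ± 0.098 RPKM with H3K4me3 only, 0.162 ± 0.029 with both marks and 0 in each library for the other classes. The classes also differ in gene type, with 83.3%, 82.5%, 58.2% and 39.2% protein-coding genes in the order given above. The libraries were of mRNA and only uniquely mapped reads were kept. Levels were not compared within protein-coding genes alone. On the scale of log2(RPKM + 0.1), the median of H3K4me3-only genes exceeded that of genes with both marks by 4.99, 4.81 and 4.70 in libraries 1 to 3 (4.84 ± 0.145), and the median of genes with both marks exceeded that of unmarked genes by 1.21, 1.41 and 1.54 (1.39 ± 0.16). The unmarked median was 0 RPKM, so the pseudocount set the size of the second difference, which was 4.09 with a pseudocount of 0.01 and 0.22 with one of 1, and 0.44 over genes with at least 16 reads. The first was 5.43, 2.85 and 4.21 under the same changes. Each difference had the same sign in 3 of 3 libraries, and sign flips of 3 values cannot give an exact p below 0.25. H3K4me3-only genes took 91.2% to 91.6% of all reads on genes, genes with both marks 3.34% to 3.78%, and H3K27me3-only genes 0.358% to 0.385%. These are bulk libraries, in which fewer cells expressing a gene and less RNA per cell cannot be told apart, and likewise both marks at one start need not lie on the same allele or in the same cells.

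The order of the marked classes was the same within CpG-rich and CpG-poor promoters. Among starts with a CpG ratio of at least 0.6, 82.9% of H3K4me3-only genes, 31.8% of genes with both marks, 13.8% of H3K27me3-only genes and 29.9% of unmarked genes reached 1 RPKM on average over the libraries. Among the rest the shares were 56.7%, 19%, 6.43% and 7.89%.

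Read from expression, over the 20297 genes of a class with at least 16 reads, H3K4me3 was at 36.0% and 39.4% of starts in the lowest decile of level, 92.0% and 92.8% in decile 8 and 90.5% and 91.3% in the highest. H3K27me3 fell from 36.9% and 39.8% in the lowest decile to 4.48% and 5.22% in the highest. The 16 reads are summed over all 16 libraries, so a gene silent in WT shEmpty is kept only if other groups hold its reads. The shares in the lowest deciles depend in part on this filter. The 17286 genes with fewer reads stood apart from this order, with H3K27me3 at 15.4% and 17% of starts and H3K4me3 at 13.1% and 14.9%. In decile 4, from 0.382 to 1.07 RPKM, H3K27me3 was at 32.9% and 36.5%.

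**Figure D3:**
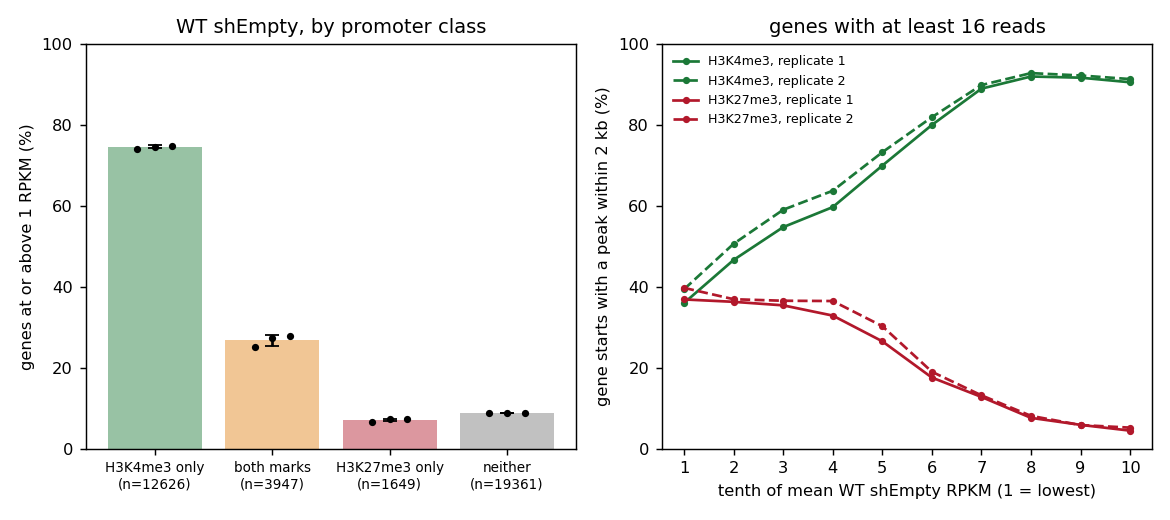
Left, genes at or above 1 RPKM (%) by promoter class in the 3 WT shEmpty libraries (points), with the mean (bar) and SD (error bar). Right, gene starts with a peak within 2 kb (%) by decile of mean WT shEmpty RPKM (1 = lowest). The deciles hold genes with at least 16 reads over all 16 libraries, a filter on which the lowest deciles depend in part. The bars stand at 74.6%, 26.8%, 7.10% and 8.86%; H3K4me3 rises from 36.0% and 39.4% to 90.5% and 91.3% of starts, while H3K27me3 falls from 36.9% and 39.8% to 4.48% and 5.22%.

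Within classes, level moved with peak width. With H3K4me3 only, the median level was 0.906 ± 0.073 RPKM in the narrowest quintile of H3K4me3 width (median 1268 bases) and 20.3 ± 0.21 RPKM in the widest (median 4712 bases), and the share at 1 RPKM or more was 48.7% ± 0.96 and 81.8% ± 0.24. That share was already 83.0% ± 0.25 and 83.5% ± 0.069 in quintiles 3 and 4, and did not rise further in the widest. With both marks the shares in the narrowest and widest quintiles were 12.7% ± 1.22 and 43.4% ± 0.95. H3K27me3 width went the other way in genes with both marks, from 39.6% ± 0.74 in the narrowest quintile to 15% ± 1.35 in the widest (SD over 3 libraries). Genes with H3K27me3 only stayed between 6.06% and 8.89% in every quintile of H3K27me3 width. Over genes, which are not independent replicates, Spearman's rho of width and level was 0.42 for H3K4me3 with H3K4me3 only, 0.26 for H3K4me3 and -0.19 for H3K27me3 with both marks, and 0.055 for H3K27me3 alone. They are given as a description, as neighbouring genes share peaks.

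**Figure D4:**
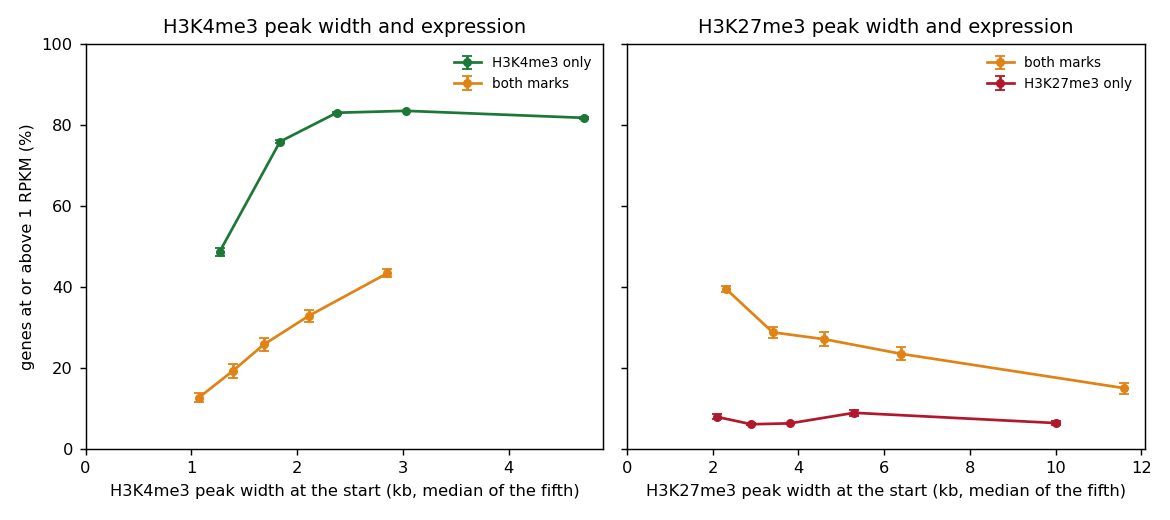
Genes at or above 1 RPKM (%, mean of 3 WT shEmpty libraries, error bars SD) by quintile of peak width at the start (x axis, median width of the quintile in kb), for H3K4me3 width (left) and H3K27me3 width (right). With both marks the share rises from 12.7% to 43.4% with H3K4me3 width and falls from 39.6% to 15% with H3K27me3 width, while H3K27me3-only genes stay between 6.06% and 8.89%.

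H3K27me3 peaks were unevenly spread over the chromosomes. Chromosomes 6 and 8 held the densest sets: 28.4 and 35.8 H3K27me3 peaks per Mb on chromosome 6 and 36.1 and 46.3 on chromosome 8 in replicates 1 and 2, while the other autosomes held 4.42 to 16.4 and the X chromosome 0.798 and 1.13. H3K4me3 showed no such excess, with 11.1 and 13.5 peaks per Mb on chromosome 6 and 12.9 and 15.3 on chromosome 8, below chromosome 11 (18.0 and 21.6), and 5.27 and 5.99 on X. Chromosomes 6 and 8 together held 31.8% and 34.6% of all H3K27me3 peaks and 11.7% and 11.6% of the H3K4me3 peaks. Their H3K27me3 peaks lay at gene starts less often (13.1% and 11.1%, against 27% and 26.5% on all remaining chromosomes but X) and touched H3K4me3 less often (8.67% and 7.94% against 22.0% and 24.2%), yet were found again in the other replicate at similar rates (63.0% and 50.1% against 57.7% and 51.7%). Of 3618 gene starts on these chromosomes 17.4% carried both marks and 10.9% H3K27me3 only, against 10.6% and 3.94% of 31367 on the remaining chromosomes but X. Of 2598 on X, 0.269% and 0.693% did. Chromosomes 6 and 8 thus gave 24.0% of all H3K27me3-only starts.

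Levels of marked genes differed between these chromosomes and the rest. The median level of H3K4me3-only genes (mean of the libraries) was 9.36 RPKM on chromosome 6 and 12.8 on chromosome 8, against 4.20 to 9.20 on the other autosomes and 4.03 on X. Chromosome 8 was above all other autosomes in each library (11.9, 13.2 and 13.2 RPKM). Chromosome 6 (8.28, 9.84 and 9.96 RPKM) was not, as chromosome 18 was at 9.35 RPKM in library 1. The share of genes with both marks at 1 RPKM or more was 33.4% ± 2.12 on chromosomes 6 and 8 and 25.5% ± 1.18 on the remaining chromosomes but X, and with H3K27me3 only 10.7% ± 0.81 and 6.04% ± 0.33 (SD, n = 3 libraries). Unmarked genes went the other way, with 7.24% ± 0.17 and 9.27% ± 0.039. In DNMT TKO against WT cells the median log2 fold change of tested H3K4me3-only genes was -0.38 on chromosome 6 and -0.24 on chromosome 8, against -0.05 on the rest. In TET TKO against WT it was -0.06, 0.10 and -0.03. The number of copies of each chromosome was not measured, and its part in peak density and RNA level was not tested. The classes also differed in size there, with H3K4me3 only at 30.3% of starts against 35.2% on the remaining chromosomes but X. Levels within a class can thus differ because other genes make up the class. The part of this shift in the levels was not tested. Chosen after seeing the data, the share of H3K27me3 peaks at gene starts (mean of the replicates) was also computed without them and was 26.7% in place of 21.9%.

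**Figure D5:**
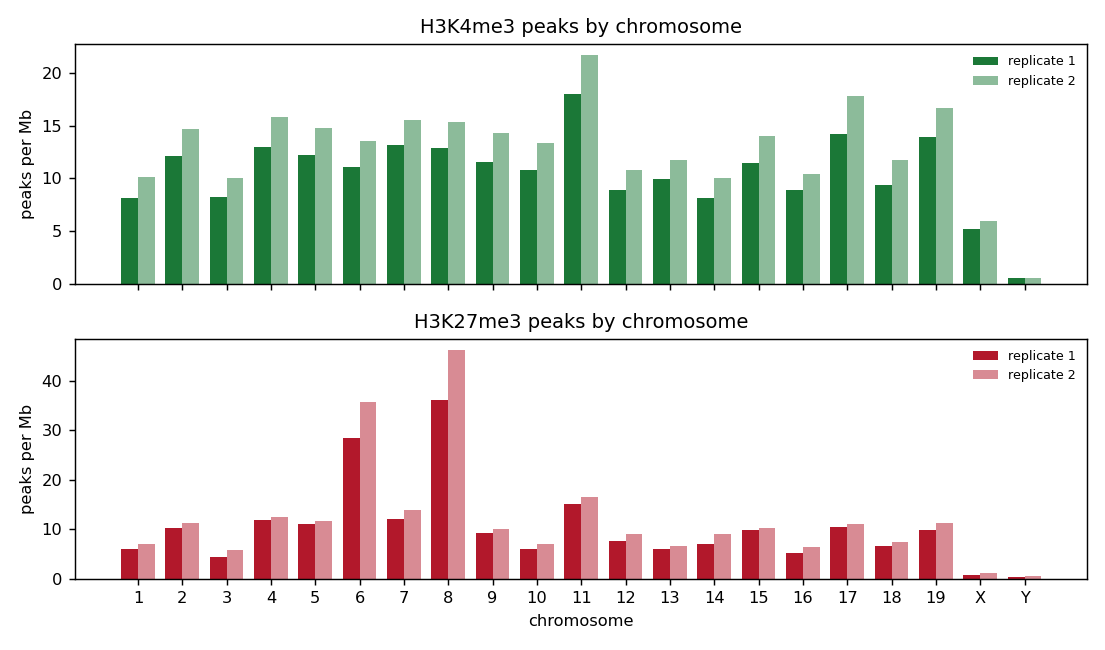
Peaks per Mb on each mm9 chromosome for H3K4me3 (top) and H3K27me3 (bottom), replicate 1 dark and replicate 2 light. H3K27me3 reaches 28.4 and 35.8 peaks per Mb on chromosome 6 and 36.1 and 46.3 on chromosome 8, against 4.42 to 16.4 on other autosomes and 0.798 and 1.13 on X, while H3K4me3 on both lies below chromosome 11.

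Gene lists fell into different classes. All 20 housekeeping genes found carried H3K4me3 only, as did 73 of 76 ribosomal protein genes and 258 of 347 numbered zinc finger (Zfp) genes, against 33.6% of all gene starts. The median level of the housekeeping list was 93.6 RPKM. Gapdh (13.3, 13.3 and 14.1 RPKM) and Ppia (13.4, 10.7 and 10.8 RPKM) have many near-identical copies and their levels are uncertain. Of 19 pluripotency genes found, 16 carried H3K4me3 only, with a median H3K4me3 width of 5594 and 6192 bases against 1974 and 2352 over all H3K4me3 starts. Nanog, a core regulator of naive ESCs, had peaks of 10695 and 13437 bases and levels of 403, 523 and 526 RPKM. Pou5f1, which encodes OCT4, had peaks of 6525 and 7893 bases and 373, 371 and 371 RPKM. Esrrb, a nuclear receptor of the naive state, had H3K27me3 only at its outermost start, yet 143, 141 and 142 RPKM. Over all its annotated transcript starts it carried both marks. Dppa3, a maternal factor, carried H3K27me3 only (5600 and 14400 bases) at 12.3, 13.0 and 12.4 RPKM, and had a H3K4me3 peak of 2215 bases in replicate 2 alone. Nr5a2 carried neither mark at its outermost start (31.7, 26.3 and 26.8 RPKM) and carried H3K4me3 over its transcript starts. Of the ESC markers, 4 of 5 found carried H3K4me3 only, and the median level of all 5 was 142 RPKM. The fibroblast feeder markers had a median of 0.039 RPKM, with Pdgfrb highest at 1.01, 1.99 and 2.29 RPKM, and the 6 extraembryonic endoderm markers lay between 0.135 and 8.78 RPKM. Over the libraries the summed levels of the 3 marker lists were 1145 to 1233, 1.97 to 3.31 and 11.3 to 13.1 RPKM.

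Most regulators of development on the lists carried both marks. Of 19 neural regulators found, 15 carried both and 3 H3K27me3 only. These 18 had a median H3K27me3 width of 12600 and 12000 bases against 4200 and 4400 over all H3K27me3 starts. Olig2 had H3K27me3 peaks of 16800 and 11400 bases over H3K4me3 peaks of 996 and 1366 bases, and 0, 0.015 and 0 RPKM. Pax6, Dbx1 and Six3, regulators of eye and forebrain or spinal cord, carried H3K27me3 only, but Pax6 and Six3 carried both marks over all transcript starts. Gbx2, known as a target of LIF signalling, carried H3K4me3 only (peaks of 5883 and 6777 bases) at 9.19, 7.74 and 6.91 RPKM, the highest of the list. Among mesoderm regulators 16 of 20 carried both marks, among endoderm regulators 12 of 15 and among trophoblast regulators 6 of 9, beside 10.5% of all gene starts. Foxf1a, a regulator of lateral mesoderm, had the widest H3K27me3 domain of replicate 1 in its list, 45800 and 27600 bases. Bmp4 and Eomes stood out by broad H3K4me3 (5825 and 6279, and 5118 and 5035 bases) with short H3K27me3 peaks (2000 and 1800, and 4000 and 1400 bases), and had the highest levels of the mesoderm list, 5.44, 3.77 and 3.33 RPKM for Bmp4 and 4.30, 5.38 and 4.94 RPKM for Eomes. Of Wnt ligands, secreted growth factors, 17 of 19 carried both marks and the other two, Wnt8a and Wnt8b, H3K27me3 only. Of 22 Fgf ligands 13 carried both. Fgf4, which ESCs secrete, carried H3K4me3 only at 88.8, 94.0 and 96.2 RPKM.

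The Hox genes, which pattern the body axis, lay in 4 clusters, of which H3K27me3 peaks covered from 60.6% (Hoxb, replicate 1) to 97.9% (Hoxa, replicate 2). Of 40 Hox gene entries (Hoxa3 has 2 entries), 31 carried both marks, 7 H3K27me3 only, and Hoxc12 and Hoxc13 H3K4me3 only. Over all annotated transcript starts 4 of those 7, Hoxb3, Hoxb6, Hoxc4 and Hoxd4, carried both marks. H3K27me3 covered 91.8% and 97.9% of the Hoxa cluster (chromosome 6, 52105366 to 52210874 in mm9), in replicate 2 in 2 peaks, one of them 110.2 kb wide, in replicate 1 with 7 peaks of up to 34.6 kb. It covered 60.6% and 68.4% of the Hoxb cluster (chromosome 11, 96055630 to 96229570), 62.0% and 65.8% of Hoxc (chromosome 15, 102751534 to 102867274) and 79.6% and 81.4% of Hoxd (chromosome 2, 74506367 to 74603200). H3K4me3 lay within the clusters as 11 to 25 narrow peaks that covered 14.1% to 37.5%. Most Hox genes were near silent, with a median of 0.201 RPKM. Hoxc12 and Hoxc13, the pair with H3K4me3 only, had 2.80, 2.97 and 3.05 RPKM and 5.26, 5.96 and 6.18 RPKM. Hoxc13 had a H3K27me3 peak of 7000 bases in replicate 2 alone.

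The machinery of the marks itself mostly carried H3K4me3 only: 23 of 29 subunits of PRC1 and PRC2, and 12 of 13 enzymes and cofactors of H3K4 and H3K27 methylation, against 33.6% of all gene starts. The PRC2 catalytic subunit gene Ezh2 had 50.4, 53.1 and 52.0 RPKM, and Eed and Suz12, its core partners, 118, 105 and 101 and 88.5, 85.6 and 84.9 RPKM. Cbx2 and Cbx8, neighbours on chromosome 11 that encode chromodomain subunits of PRC1, carried both marks, as did Phf19 and Bmi1. Cbx8 had the widest H3K27me3 of them (11600 and 22400 bases) and 0.831, 1.26 and 1.08 RPKM, while Cbx7, known as the main CBX subunit of ESCs, carried H3K4me3 only at 33.2, 29.2 and 30.4 RPKM. Dpy30, a subunit of the H3K4 methyltransferases, carried neither mark at its outermost start although it had 115, 115 and 111 RPKM, and H3K4me3 over all its transcript starts.

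Receptor genes of the nose were mostly unmarked. Of 1098 olfactory receptor genes 1069 carried neither mark, and of 308 vomeronasal receptor genes 295, beside 51.5% of all gene starts. Of 24 genes of terminal tissues 14 and of 18 germline genes 11 carried neither mark, and 6 and 3 carried H3K27me3 only, beside 4.39% of all gene starts. Of the terminal tissue list, Alb, Ins1 and Gcg had 0 reads in all 3 libraries. Gfap, Krt14, Myh6 and Myh7, of glia, skin and heart, were among the 6 that carried H3K27me3 only. Cd3e, of the T cell receptor complex, carried H3K4me3 only (986 and 1180 bases) and was expressed at 7.89, 12.0 and 13.1 RPKM. The germline genes Dazl, Sycp3, Hormad1 and Syce1 carried neither mark but were expressed, Dazl, the highest, at 5.71, 7.02 and 8.49 RPKM. The median of the 11 unmarked germline genes was 0.826 RPKM. Imprinted genes were mixed, with 9 of 22 carrying H3K4me3 only, 9 both marks, 2 H3K27me3 only and 2 neither. Mest, which carried H3K27me3 only at its outermost start (3000 and 2200 bases), had 60.8, 75.0 and 71.4 RPKM and carried both marks over all transcript starts. Over all genes, counting every annotated transcript start moved 102 (6.19%) of the H3K27me3-only genes and 208 (1.65%) of the H3K4me3-only genes to both marks.

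The widest H3K4me3 peaks at gene starts included those over the microRNA genes Mir182, Mir183 and Mir96 (a shared peak of 13798 and 13398 bases), Mkrn1 (12805 and 13076), the chromatin factors Mllt6 (12363 and 26200) and Brd2 (11919 and 12939), and Tnrc18 (11953 and 12964). Most genes named by H3K4me3 score were tied at 3100, and their values are not given. The H3K27me3 peaks of highest score at gene starts, taking both replicates together, were over a pair of regions that hold many near-identical copies and where read mapping is uncertain: one of 74800 bases in both replicates on chromosome 11 over Sfi1, Pisd-ps1 and pseudogenes, and one of 92800 and 96200 bases on chromosome 8 over a row of entries named 5S_rRNA and AC141881. The most expressed genes with both marks included Lamp1, of the lysosome membrane (332, 359 and 359 RPKM), the glucose transporter Slc2a3 (196, 267 and 284 RPKM) and the tRNA synthetase Kars (156, 185 and 182 RPKM), all on chromosomes 6 or 8, and Rpl7 on chromosome 1 (347, 317 and 309 RPKM). Their H3K27me3 peaks spanned 2000 to 5000 bases.

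Changes of expression were then set beside the classes marked in WT cells. edgeR's quasi-likelihood test was fitted over all 16 libraries and 20321 genes, and a gene was called at a Benjamini-Hochberg adjusted p under 0.05 and at least 2-fold. No ChIP-seq of the knockdown or knockout cells was used, and all 3 comparisons share the WT shEmpty libraries. In each comparison the largest rises and falls of a class were taken among genes with at least 500 reads in all. Trim28, the gene of KAP1, went from 492, 405 and 402 RPKM in WT shEmpty to 47.0, 38.5 and 36.9 in WT shKAP1 (log2 fold change -3.41 ± 0.16, SE, edgeR adjusted p = 2.19e-09), with no overlap. In DNMT TKO cells transcripts of Dnmt1 (-1.65), Dnmt3a (-3.04) and Dnmt3b (-2.64) fell. In TET TKO cells Tet1 (-1.49) and Tet2 (-2.16) fell and Tet3 did not pass the test (-0.03 ± 0.16). RNA that remains from a knocked-out gene does not check the protein. Trim28 and the Dnmt, Tet1 and Tet2 genes carried H3K4me3 only. Tet3 carried both marks, under H3K27me3 peaks of 38000 and 58000 bases, at 0.962, 1.37 and 1.44 RPKM.

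After Kap1 knockdown in WT cells 10.8% of all tested genes were called up and 6.54% down. Of 3019 tested genes with both marks 562 (18.6%) rose and 360 (11.9%) fell, against 5.23% and 4.66% of 11341 with H3K4me3 only. With H3K27me3 only 21.3% of 614 rose and 10.3% fell, and of 5323 unmarked genes 17.1% rose and 7.10% fell. The read filter sums all 16 libraries, so a gene silent in WT shEmpty is tested only if another group is high. In all 3 comparisons the shares called up in classes of low level depend in part on this filter. The classes differ in level: the median of the tested genes in WT shEmpty was 9.23 RPKM with H3K4me3 only, 0.412 with both marks, 0.125 with H3K27me3 only and 0.288 with neither. Among tested genes of at least 1 RPKM, 10.4% with both marks rose and 14.8% fell, against 2.84% and 4.23% with H3K4me3 only, 7.02% and 13.2% with H3K27me3 only, 6.33% and 7.73% with neither, and 4.01% and 5.71% over all 12309 of them. The level used here is that of the WT shEmpty libraries from which the fold is taken, so the balance of rises and falls at this level depends in part on the choice of genes, over all genes as in each class.

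Among genes with both marks and at least 500 reads in all, the largest rises after knockdown were of Sox30, a testis regulator (0.037, 0.047 and 0.059 RPKM in WT shEmpty; 1.28, 1.33 and 1.53 in WT shKAP1; log2 fold change 4.76 ± 0.31, edgeR adjusted p = 1.43e-09), the imprinted gene Magel2 (4.68 ± 0.35) and the sulfotransferase Chst1 (4.63 ± 0.44). In each of them all knockdown libraries were above all controls. The largest falls were of the kinase Prkg2, the growth factor Fgf17 and the citrate transporter Slc13a5, each at -4.54. Fgf17 went from 5.00, 2.49 and 3.00 RPKM to 0.093, 0.257 and 0.063. With H3K27me3 only, 2810429I04Rik rose by 7.52 ± 0.25, from 0.016, 0.036 and 0.025 RPKM to 5.04, 4.98 and 5.20. Hoxb1 (start at 96227066 on chromosome 11, forward strand) rose by 6.63 ± 0.37, from 0.024, 0.077 and 0.091 to 4.24, 8.62 and 8.29 RPKM, and Wnt8a by 5.04 ± 0.49, from 1.18, 0.754 and 0.628 to 35.7, 24.2 and 21.8 RPKM. Zmat4 (-3.55 ± 0.46) and Gm9732 (-3.49 ± 0.46) fell. B430306N03Rik was called down (-2.61 ± 0.89, edgeR adjusted p = 0.023) on 17 reads in WT and 2 after knockdown, a call lost without WT shEmpty replicate 2 (-2.22) or WT shKAP1 replicate 1 (-2.11) or 2 (-2.86).

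In the lists, 9 of 19 pluripotency genes were called down after knockdown and none up, led by Tcl1 (-4.54 ± 0.20, edgeR adjusted p = 3.74e-10) and Prdm14 (-2.83 ± 0.15), while Pou5f1 was at -0.12 ± 0.063. Of 37 tested Hox entries 10 rose and 2 fell, the falls being of Hoxc12 (-2.13 ± 0.23) and Hoxc13 (-1.18 ± 0.18), the pair with H3K4me3 only. Of the tested neural regulators 5 of 15 rose and 1 fell, of mesoderm regulators 6 of 20 and 2, of endoderm regulators 4 of 14 and 4, and of trophoblast regulators 4 of 9 and 2. Pax6 rose by 2.77 ± 0.41 and Neurog1, with both marks, by 2.89 ± 0.41, whereas Bmp4 fell by 2.34 ± 0.35 and the endoderm gene Hnf4a, with neither mark at its outermost start and H3K27me3 only over all transcript starts, by 4.84 ± 0.50. Dbx1 had 0 reads in the WT controls and 10 over the knockdown libraries (at least 1.27-fold higher against a floor of 3 reads a library). Of Wnt ligands 5 of 16 rose and 1 fell, of imprinted genes 10 of 21 rose and none fell, and of germline genes 7 of 18 rose and 2 fell. No tested gene among 20 housekeeping genes was called. These lists are read against 10.8% up and 6.54% down over all genes, and no list was tested as a set.

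In DNMT TKO against WT cells 8.23% of all tested genes were up and 8.05% down. With both marks 431 (14.3%) were higher and 429 (14.2%) lower, with H3K4me3 only 3.30% and 6.63%, with H3K27me3 only 14.7% and 13.8%, and with neither 14.6% and 6.95%. The share of lower genes thus was above the background in both H3K27me3 classes and below it in the others; among tested genes of at least 1 RPKM it was 14.8% with both marks, 14.0% with H3K27me3 only, 5.54% with H3K4me3 only and 7.67% with neither, against 6.72% over all of them, so that the unmarked class too was above the background at that level. Sgcz, a muscle membrane gene with both marks, had 1 read in the WT libraries and 405 in DNMT TKO (1.49, 2.05 and 1.73 RPKM), and Kbtbd11 rose by 6.37 ± 0.44. Inpp4b had 0 WT reads and was at least 9.23-fold higher. All lie on chromosome 8. Of the tested genes with both marks on chromosome 8, 10.2% were higher and 17.7% lower, against 14.7% and 13.6% on chromosomes other than 6 and 8. The largest falls with both marks were of H2-Q6 (-5.50 ± 0.81), a member of a family of near-identical genes, Inhbe (-5.20 ± 0.45) and the glutamate receptor Grm8 (-5.0 ± 0.36). Inhbe, an inhibin subunit, went from 1.79, 3.53 and 3.80 RPKM to 0.048, 0.081 and 0.108. With H3K27me3 only the sodium channel gene Scnn1a fell by 4.87 ± 0.41, Zmat4 by 4.29 ± 0.48 and Tmem125 by 4.15 ± 0.45, and B430306N03Rik (3.89 ± 0.38) and Spesp1 (3.72 ± 0.55) rose. Gm6309 had 0 reads in WT and 8 in DNMT TKO, too few for a fold. Of 37 tested Hox entries 12 were higher and 3 lower, and of 16 Wnt ligands 1 and 5.

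In TET TKO against WT cells, with 2 against 3 libraries, 5.66% of all tested genes were up and 4.8% down. With both marks 369 (12.2%) were higher and 215 (7.12%) lower, with H3K4me3 only 2.60% and 3.41%, with H3K27me3 only 8.47% and 8.31%, and with neither 8.13% and 6.07%. Among tested genes of at least 1 RPKM, 6.89% with both marks were higher and 8.12% lower, against 1.34% and 2.89% with H3K4me3 only, 7.89% and 11.4% with H3K27me3 only, 4.01% and 7.90% with neither, and 2.25% and 4.12% over all of them. With TET TKO shEmpty replicate 1 or 2 left out, the lower count with both marks was 143 or 136. Gm10499 with both marks rose by 8.13 ± 0.24, from 0.154, 0.079 and 0.039 RPKM to 23.5 and 24.4, and the Fc receptor gene Fcgr3 by 5.61 ± 0.33, from 0.096, 0.041 and 0.102 to 3.77 and 4.10. Mdga2 had 0 WT reads and was at least 2.70-fold higher. Pstpip2 (-2.91 ± 0.42), the lysine-degrading enzyme gene Aass (-2.82 ± 0.26) and Gabrg3 (-2.81 ± 0.46) fell most. With H3K27me3 only 2810429I04Rik rose by 5.90 ± 0.28, Plekhg4 by 4.46 ± 0.40 and Mamstr by 3.91 ± 0.36, and D630013G24Rik fell by 5.38 ± 0.50 and Gcm2 by 2.98 ± 0.69, a call lost without TET TKO shEmpty replicate 2 (-2.47). Hoxb1 was called down on 12 reads in WT and 0 in TET TKO, a call that was lost in limma-voom and when any of 4 libraries was left out.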

How the data were processed

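H3K4me3 and H3K27me3 were measured by ChIP-seq in WT cells with 2 replicates each, and RNA in 16 libraries of 6 groups. Per the authors' methods, reads were aligned to mm9 with Bowtie2 (2.2.1 in the submitters' processing notes), and H3K4me3 peaks were called against input with MACS 1.4 and kept above a score of 50. The deposited score of column 5 is the MACS score. The methods name MACS in general and SICER 1.1 (window 200 bases) for H3K9me3, without naming H3K27me3. All H3K27me3 widths are multiples of 200 bases, as in the SICER window, which limits their resolution, and the meaning of the deposited H3K27me3 score is not given in the sources used here. The authors deposited raw read counts per gene from featureCounts (1.5.1 in the notes, v1.5.0-p1 in the file headers), counted by strand on GENCODE vM1 genes. Of 37991 genes, 37583 lay on chromosomes 1 to 19, X and Y and were used. Depth was 18108431 to 29373696 reads on genes. Peak lists carry no read depth, so intervals on shares of peaks cover counting error only. Counts were tested with edgeR 4.0.16 (R 4.3.3; TMM, quasi-likelihood, robust; genes with at least 16 reads over all libraries; all 6 groups in one fit). RPKM was computed from the counts, TMM library sizes and the deposited gene lengths. The step was tested on simulated data. The study's methods describe the replicates of both assays as independent experiments. Same-numbered libraries deviated together in the knockdown comparison (Pearson r 0.508, 0.345 and 0.350 over 12629 genes) and in DNMT TKO against WT (0.533, 0.357 and 0.399). The numbers may thus pair those samples, but libraries of different numbers were not correlated for comparison. All calls, SEs and adjusted p given for genes are from the fit without a block, and a fit with the replicate block was run as an alternative. Alternatives were the window, 1 replicate in place of both, score, overlap, joining of peaks, pseudocount, read filter, DESeq2 1.42.0, limma-voom (limma 3.58.1), the block and leaving out each library. Named genes were the widest, highest scored and most expressed of each kind, the 3 largest calls per class and direction, the targets and the listed genes. The most expressed genes and the largest calls were taken among genes with at least 500 reads in all. The members and lists were chosen with earlier results of these data known. The 5hmC libraries and the other RNA comparisons were not analysed here.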

Additional observations from a re-analysis of the deposited data

How the results depend on the processing

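Under the alternatives run, 160 values that answer a comparison kept their size and 48 moved, and of 501 pairs of a named gene and an alternative 488 kept direction and call, 9 lost the call and 4, all of Tet3, changed sign. Of 252 pairs of a list count and an alternative 19 moved. A count kept its size within 1.5 times, and a value within the SD of its libraries (for CpG ratios, within the spread over genes). This SD was 15.5 points for H3K4me3 repeatability, so sizeable shifts could pass as kept. The share of peaks at gene starts (mean of the replicates) was 47.0% for H3K4me3 and became 55.6% at 5 kb and 72.4% above the median score. For H3K27me3 it was 21.9%, and 18.6% at 1 kb, 30.7% at 5 kb, 29.7% above the median score, 15.05% over genes with at least 16 reads and 26.7% without chromosomes 6 and 8 (chosen after seeing the data). The mean of the median widths was 1365.5 bases for H3K4me3, 2072.5 above the median score and 1493.5 with peaks joined within 1000 bases. For H3K27me3 it was 2800 and 3800 above the median score. With 50% reciprocal overlap 30.7% of H3K27me3 peaks were repeated in place of 55.2%. H3K27me3-only starts numbered 1649, but 3414 with a peak in either replicate, 2535 to 2579 with 1 peak replicate left out and 614 over genes with at least 16 reads. Starts with both marks numbered 3947, 2226 above the median score and 2578 over starts alone within 4 kb, where H3K4me3-only starts fell from 12626 to 7253. Unmarked starts went from 19361 to 5323 over genes with at least 16 reads. The difference in median log2(RPKM + 0.1) between H3K4me3 only and both marks was 4.84, and 4.53 at 5 kb, 4.58 with either replicate, 4.66 and 4.69 with 1 peak replicate left out, 4.76 to 4.90 with 1 RNA library left out, 4.21 over genes with at least 16 reads, 5.43 with a pseudocount of 0.01, 2.85 with one of 1 and 5.40 on CPM. Between both marks and neither it was 1.39, and 1.69 with either replicate, 1.53 and 1.59 with 1 peak replicate left out, 1.31 to 1.47 with 1 RNA library left out, 1.63 above the median score, 0.44 over genes with at least 16 reads, 4.09 and 0.22 with the pseudocounts and 2.64 on CPM. Without the fold threshold the genes with both marks called up and down numbered 849 and 593 after knockdown, 710 and 697 in DNMT TKO and 634 and 326 in TET TKO. At 1 RPKM or more they were 110 and 157, 79 and 157, and 73 and 86. That level is taken from the WT libraries of the fold, and the balance of rises and falls over all genes turned with it too. With 1 library left out the TET TKO count of lower genes ran from 136 to 247. In the TET comparison same-numbered libraries share only a number (r -0.04 and -0.06). The replicate block moved no count of calls with both marks by over 1.5 times, and Tet3 in TET TKO, which did not pass the test, turned from -0.031 to 0.0139 under it, and ran from -0.18 to 0.072 with 1 library left out, above 0 without TET TKO replicate 1 or WT replicate 2 or 3. The causes were not tested.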
